A study of Arabidopsis thaliana with 36 samples.

Results

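Roots of the Arabidopsis thaliana *otu5* mutant were compared with wild-type (WT) roots after growth on medium low in inorganic phosphate (Pi). The comparison covered 20411 of the 33557 genes in the deposited table. These reached at least 1 RPKM (reads scaled by gene length and library size) in at least 3 of the 12 RNA libraries. It rests on 6 of the series' 36 samples, namely 3 libraries of *otu5* in low Pi and 3 of WT in low Pi. The 3 *otu5* and 3 WT libraries from control medium entered the same fit and served to ask whether a genotype difference in low Pi was also seen in control medium. All plants were grown on plates in continuous light and roots were harvested 14 days after germination, when polyA RNA was sequenced with 100-bp reads. The labels name the mutant only as *otu5*, with no allele, and name no background accession. They do not say whether the 3 libraries of a group came from separate plants, so a p-value reflects only how these libraries vary, which may be technical. Rosette leaves appear in the text on RNA isolation although the tissue label says root, and the culture condition label follows the genotype and contradicts the titles, so groups were taken from titles and source names.

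OTU5 encodes a deubiquitinase of the ovarian tumour (OTU) family, enzymes that cleave ubiquitin from proteins, and the study addressed its part in root growth and in how roots respond to missing Pi. Roots short of Pi switch on a systemic programme run by the MYB factor PHR1 and restrained by SPX proteins, which raises Pi transporters, secreted phosphatases and the replacement of phospholipids by galactolipids and sulfolipids. A second, local programme at the root tip depends on iron in the cell wall and reshapes growth, with a shorter primary root and more and longer root hairs. Root hairs are tubular outgrowths of single epidermal cells, built by wall-loosening enzymes, hydroxyproline-rich wall proteins and peroxidases under basic helix-loop-helix factors such as RHD6, RSL2 and RSL4.

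OTU5 itself stood at 0.432, 0.999 and 1.00 RPKM in the *otu5* libraries, against 40.6, 38.9 and 40.2 RPKM in the WT libraries. Every *otu5* library lay far below every WT library. The log2 difference was -4.98 ± 0.18 (SE) with an adjusted p of 3.6e-07 in limma (the threshold throughout was 0.05, adjusted over all genes tested), and the exact two-sided permutation test gave p = 0.1, the smallest that 3 against 3 libraries allow. None of the 6 nearest tested neighbours, APG3, AT3G62920, AT3G62930, AT3G62960, AT3G62970 and TIR1, was called in limma.

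Library sums of RPKM in low Pi lay between 993382 and 1073221, and correlations of log2 values were 0.969 to 0.98 within *otu5*, 0.973 to 0.98 within WT and 0.96 to 0.97 between the genotypes. Read counts are not in the table, so absolute depth is unknown, and relative depth estimated from the steps of low values spanned 0.801 to 1. AT2G01021 took 5.31% to 10.1% of the summed RPKM in *otu5* and 2.1% to 4.24% in WT. Photosynthesis genes, which mark green tissue, were present beside root genes and summed to between 2430 and 2520 RPKM in *otu5* and between 2000 and 2500 RPKM in WT. Their part in the differences below was not tested.

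In low Pi, 817 genes rose in *otu5* relative to WT (4% of those tested) and 1206 fell (5.91%), of which 83 and 132 changed at least 2-fold. Together these are 9.91% of the tested genes. The median log2 difference of all tested genes was 0.0056. Among the 2023 called genes the *otu5* and WT libraries did not overlap for 2009, against 29.1% of all tested genes. With 3 libraries a group a call nearly requires such separation. Lack of overlap in called genes, here and below, therefore adds no support to their calls. The largest changes were ranked among called genes with a symbol whose libraries did not overlap between genotypes. Of these, the largest rises were UGT74E2, a glucosyltransferase of indole-3-butyric acid, at 2.35 on the log2 scale, then UMAMIT36, an amino acid transporter family member. GLYI7, a glyoxalase I family protein, and ASN1, the dark-induced asparagine synthetase, came next. In the same ranking, the largest falls after OTU5 were FRO4, a ferric-chelate reductase linked to copper uptake, at -2.37, and the wall enzyme XTH26 at -2.28. The sodium transporter HKT1 at -2.16 and the vacuolar iron transporter-like VTL5 at -1.98 followed. Counts moved when a single library was left out, which leaves 2 in that group. They were 282 higher and 548 lower without *otu5* replicate 1, 301 and 531 without WT replicate 1, and 365 and 580 without WT replicate 2. Without WT replicate 3 they were larger, at 883 and 1368. Calls also varied with level and gene length. Among genes above 100 RPKM 4.84% rose and 17.9% fell, and within these 22.8% of genes longer than 1000 and up to 2000 bp fell against 6.69% of those over 3000 bp.

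**Figure D1:**
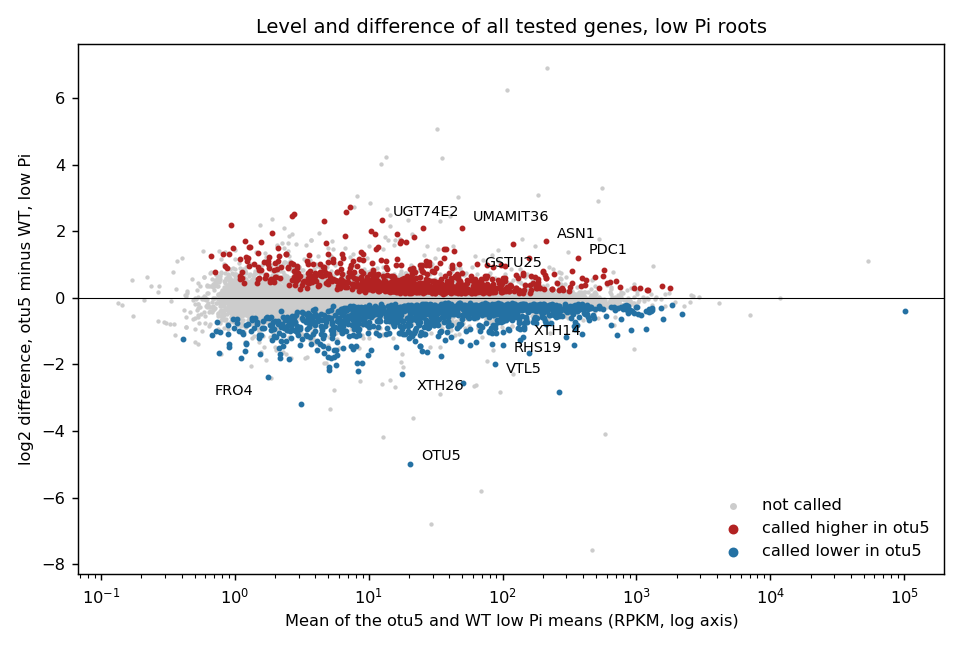
Each point is 1 of the tested genes, with the mean of the *otu5* and WT low Pi means on a log axis (RPKM) and the log2 difference, *otu5* minus WT, on the vertical axis; genes called by limma are coloured by direction. OTU5 lies at -4.98, and called falls crowd at high levels, where 17.9% of genes above 100 RPKM fell.

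UMAMIT36 measured 93.2, 65.1 and 84.5 RPKM in *otu5* and 16.2, 21.1 and 17.8 RPKM in WT, a log2 difference of 2.1 ± 0.18 (SE, adjusted p = 0.00041). FRO4 measured 0.0946, 0.447 and 0.112 RPKM in *otu5* and 4.63, 3.66 and 1.73 RPKM in WT (-2.37 ± 0.32, adjusted p = 0.0025). HKT1, which retrieves sodium from the xylem, measured 1.22, 1.98 and 1.31 RPKM in *otu5* against 6.03, 12.1 and 7.83 RPKM in WT (-2.16 ± 0.31, adjusted p = 0.0033). In all 3 genes the groups did not overlap, but the largest changes were picked with that limit. Lack of overlap in them, here and below, therefore follows from the choice. FRO4 was close to 0 in each *otu5* library. COPT2, a copper transporter of the root epidermis, was at 0.229 and 0.108 RPKM in *otu5* replicates 1 and 2, was listed at 0 in replicate 3, and measured 1.34, 1.56 and 1.3 RPKM in WT (-1.65 ± 0.3, adjusted p = 0.0091). In control medium the genotypes differed in COPT2 by only 0.1, not called. Both FRO4 and COPT2 reached 1 RPKM only in WT libraries, so they passed the 1 RPKM filter through WT alone. AGD11, HB40, AGL79 and CLE5 also fell, by 1.94, 1.81, 1.68 and 1.64 on the log2 scale, and AGP30 by 1.63. The call of AGP30, a root arabinogalactan protein, was lost without WT replicate 1 (adjusted p = 0.057). Among rises, PIP2E, a plasma membrane aquaporin, measured 11.9, 12.2 and 14.2 RPKM in *otu5* and 5.49, 4.99 and 3.44 RPKM in WT (1.39 ± 0.16, adjusted p = 0.0012), and AGO3, an argonaute of small RNA silencing, differed by 1.49 ± 0.27 (adjusted p = 0.0082).

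Many genes of root hair growth fell in *otu5*. Of the 42 listed genes 41 were tested, and 22 fell (53.7%, against 5.91% of all tested genes), with 35 of 41 differences below 0 and a median of -0.49. This list and the others below were chosen with earlier results of these data known. Their shares describe the lists and are no independent test. Wall-modifying enzymes were among them. XTH26, a xyloglucan endotransglucosylase of hair cells, measured 3.5, 7.5 and 6.2 RPKM in *otu5* against 39.6, 29.3 and 19.9 RPKM in WT, a log2 difference of -2.28 ± 0.27 (adjusted p = 0.0014). XTH14, of the same family, measured 76.3, 95.8 and 87.7 RPKM in *otu5* against 237, 200 and 156 RPKM in WT (-1.17 ± 0.14, adjusted p = 0.0016). In both genes the highest *otu5* library was below the lowest WT library, and WT replicate 3 was the lowest of the WT libraries. XTH12 differed by -1.07 and EXPA18, a hair expansin, by -0.8.

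Peroxidases, structural wall proteins and regulators of the same list fell as well. RHS19, a root-hair-specific peroxidase, measured 43.9, 57.6 and 62.4 RPKM in *otu5* against 184, 145 and 112 RPKM in WT (-1.41 ± 0.17, adjusted p = 0.0014). AT4G26010, listed with the root hair genes but without a symbol in the reference table, measured 66.4, 85.8 and 82.5 RPKM in *otu5* against 235, 195 and 139 RPKM in WT (-1.25 ± 0.17, adjusted p = 0.0025). RHS15 measured 2.36, 3 and 3.95 RPKM in *otu5* against 12.9, 9.26 and 7.11 RPKM in WT (-1.49 ± 0.19, adjusted p = 0.002). Libraries of the genotypes did not overlap in these 3 genes. LRX1, a leucine-rich repeat extensin that organises the hair wall, fell by 0.81 on the log2 scale, the proline-rich wall protein PRP3 by 0.8, RHS12 by 0.92, RHS13 by 0.92, RHS16 by 1.04 and MRH6 by 1.14. Of the transcription factors, RSL2 fell, with 5.03, 6.48 and 5.31 RPKM in *otu5* against 14.9, 10.8 and 8.54 RPKM in WT (-0.94 ± 0.17, adjusted p = 0.0085), and LRL3 fell by 0.61 (adjusted p = 0.0034). RHD6, which acts at the start of the hair programme, measured 15.5, 19.4 and 17.2 RPKM in *otu5* and 18.4, 16.4 and 15.6 RPKM in WT, and RSL4, which sets hair length, measured 8.06, 10.8 and 6.86 RPKM in *otu5* and 7.41, 6.32 and 6.35 RPKM in WT. Both overlapped between the genotypes and neither was called.

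**Figure D2:**
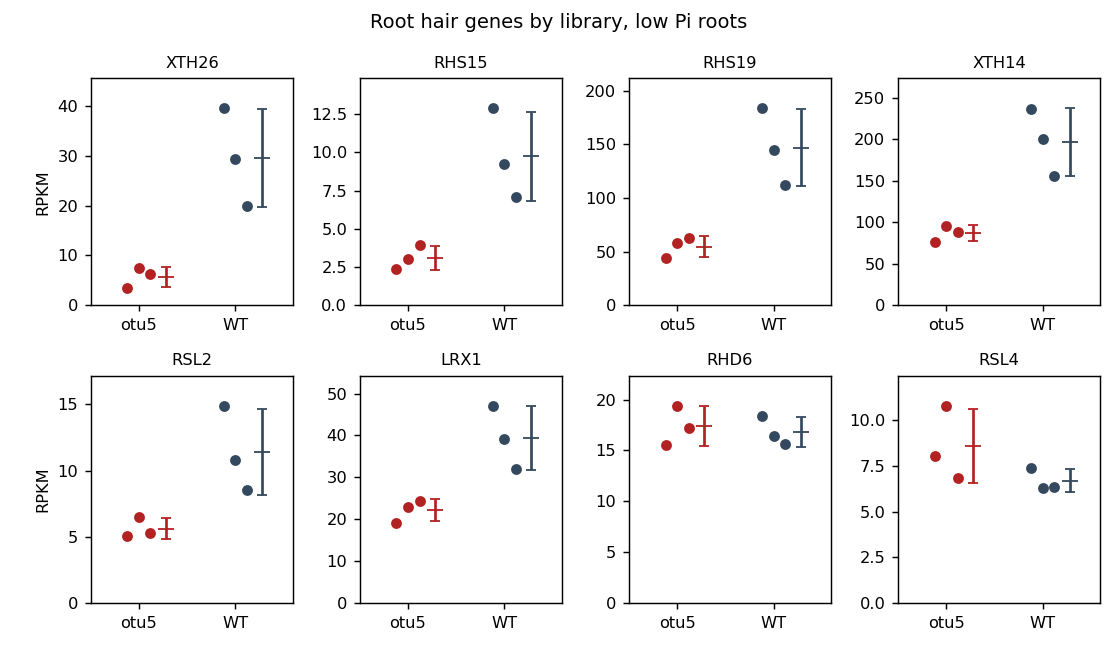
RPKM of 8 root hair genes in low Pi roots, with 1 point per library (*otu5* left, WT right) and the mean ± SD (n = 3 each) beside the points. XTH26, RHS15, RHS19, XTH14, RSL2 and LRX1 lie lower in all *otu5* libraries, whereas RHD6 and RSL4 overlap.

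Genes that decide which epidermal cells form hairs gave no call. Of the 12 tested fate genes, among them GL2, CPC, WER and TTG1, limma called 0 (2 were lower at an unadjusted p under 0.05), with a median of -0.11. GL2, the homeobox repressor of hair fate, measured 7.43, 7.85 and 8.5 RPKM in *otu5* and 9.35, 8.55 and 8.55 RPKM in WT (-0.15 ± 0.12, adjusted p = 0.47). In a bulk root sample, fewer hair cells and less of these transcripts per hair cell cannot be told apart. When 1 library was left out, between 15 and 28 of the root hair growth genes were called lower, and after values were centred by gene length and level within each library it was 22.

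The same genes were then read in control medium. There 1 of the 41 genes fell in *otu5* (5.52% of all genes tested did), and the median difference was -0.012. The test of the change in the genotype difference between media, an interaction term, gave an unadjusted p under 0.05 and a negative sign for 25 of 41 genes, against 2.96% of all tested genes (2.51% had a positive sign and 5.47% either). None of them passed after adjustment over all genes in limma, where the smallest adjusted p of the list was 0.22, and 1 gene of all tested did. For XTH14 the difference was -1.17 in low Pi and 0.04 in control medium (interaction -1.21, unadjusted p = 0.00012). For RHS12 it was -0.92 in low Pi and 0.039 in control medium (unadjusted p = 0.00027). Other members were lower in control medium too, without a call. XTH26 differed there by -0.93 (adjusted p = 0.053) and MRH6 by -0.49 (adjusted p = 0.072), against -2.28 and -1.14 in low Pi. Set against control medium of the same genotype, 4 of the 41 genes were called higher in low Pi in *otu5* and 19 in WT, where the shares over all tested genes were 4.81% in *otu5* and 2.55% in WT. Those comparisons share their low Pi libraries with the genotype comparison. In the 6 WT libraries alone, with replicate number as a block, 21 of the 41 were called higher, against 5.13% of all genes. The same fit without the block gave 16 and 2.54%. With the block over the 12 libraries it was 17 in WT, against 2.18% of all genes. The labels do not state that replicate numbers pair the libraries.

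Other wall, actin and vesicle traffic genes, grouped by symbol after their values had been seen and given no test as groups, included further falls. Of 7 tested EXT genes, coding for extensins, the hydroxyproline-rich scaffold proteins of the wall, 5 fell (71.4%, against 5.91% of all tested genes). EXT6 measured 26.3, 39.3 and 42.6 RPKM in *otu5* against 115, 84.6 and 70.9 RPKM in WT (-1.31 ± 0.21, adjusted p = 0.0056). EXT11 measured 21.2, 26.1 and 28.4 RPKM in *otu5* against 63.2, 49.7 and 44.2 RPKM in WT (-1.03 ± 0.15, adjusted p = 0.0034). In control medium EXT6 differed by -0.1 and EXT11 by 0.0076. AGP3, coding for an arabinogalactan peptide, measured 66.8, 79.8 and 79.4 RPKM in *otu5* against 173, 147 and 121 RPKM in WT (-0.95 ± 0.11, adjusted p = 0.0014), with a control difference of 0.055. ADF8 and ADF11, actin-depolymerising factors, fell by 0.94 and 0.74, the syntaxin SYP123 by 0.72, and RABA5E, a small GTPase of vesicle traffic, fell to 12.5, 13.5 and 13.1 RPKM in *otu5* against 21.3, 19.5 and 20.6 RPKM in WT (-0.63 ± 0.052, adjusted p = 0.00033). In these families limma called lower 4 of 9 tested ADF genes (44.4%), 6 of 19 SYP (31.6%), 4 of 20 RABA (20%) and 7 of 26 AGP (26.9%). None was called higher, and most members of each were not called. The *otu5* and WT ranges of all the genes given here by library were apart.

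Genes of mitochondrial stress rose in *otu5*. They answer to disturbed respiration through the membrane-bound factors NAC13 and NAC017 and include alternative oxidases, which pass electrons to oxygen without proton pumping, and alternative NAD(P)H dehydrogenases. Of 16 tested members of this list, also chosen with earlier results known, 9 rose (56.2%, against 4% of all tested genes), and the median was 0.87. UGT74E2 measured 29.8, 17.9 and 16 RPKM in *otu5* against 2.29, 3.1 and 6.39 RPKM in WT (2.35 ± 0.33, adjusted p = 0.0029). GSTU25, a glutathione transferase, measured 199, 201 and 141 RPKM in *otu5* against 51.9, 48.9 and 73.9 RPKM in WT (1.63 ± 0.23, adjusted p = 0.0029). NDB4, an external NAD(P)H dehydrogenase, measured 2.39, 2.46 and 1.7 RPKM in *otu5* against 0.329, 0.505 and 0.406 RPKM in WT (1.54 ± 0.22, adjusted p = 0.0032). Groups were apart in each, and *otu5* replicate 3 was the lowest of its group. NDB4 was below 1 RPKM in every WT library, with a WT control mean of 0.426 RPKM. It therefore passed the 1 RPKM filter through *otu5* libraries alone, and its separation is no further support.

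The further risers of that list were AT2G21640 at 1.82, AT5G09570 at 1.65, the sulfotransferase SOT12 at 1.2, AT5G51440 at 1.06, NAC13 at 0.87 and NDB2 at 0.52. The calls of AT5G51440 and NDB2 were lost without *otu5* replicate 1 (adjusted p of 0.089 and 0.095) and without each of *otu5* replicate 2, WT replicate 1 and WT replicate 2, and that of NDB2 also without WT replicate 3. AOX1A, the main stress-induced alternative oxidase, measured 55.9, 64.8 and 37.3 RPKM in *otu5* and 36.7, 35 and 36.8 RPKM in WT (0.5 ± 0.16, adjusted p = 0.072). Its lowest *otu5* library barely exceeded the highest WT library. NAC017 differed by 0.062 and was not called. In control medium 7 of the 16 genes rose as well (4.85% of all genes tested did), with a median of 0.56, and the list count in low Pi stayed between 7 and 12 when 1 library was left out.

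**Figure D3:**
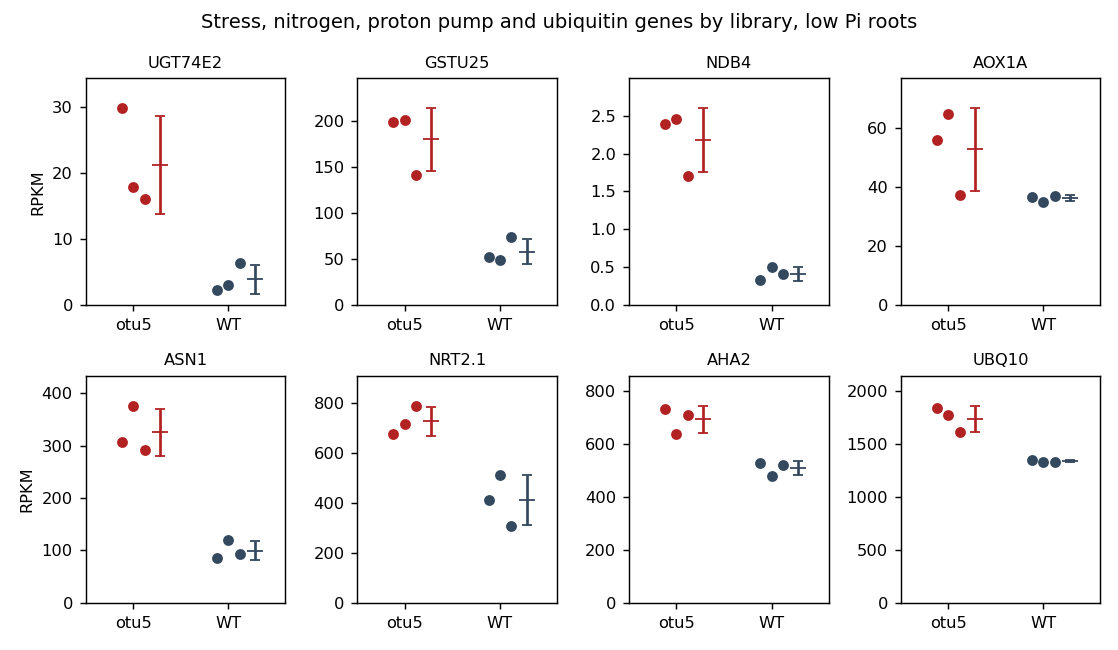
RPKM of 8 genes in low Pi roots, with 1 point per library (*otu5* left, WT right) and the mean ± SD (n = 3 each) beside the points. UGT74E2, GSTU25, NDB4, ASN1, NRT2.1, AHA2 and UBQ10 lie higher in all *otu5* libraries, and the *otu5* libraries of AOX1A, which was not called, reach down to 37.3 RPKM.

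Few systemic Pi starvation genes were called between the genotypes. The list of Pi signalling and transport had 22 tested members, of which 1 rose and 1 fell, shares of 4.55% and 4.55% that are close to those of all genes, with a median of -0.15. The riser was WRKY6, a repressor of PHO1, at 0.39, and the gene that fell was PHO2, the ubiquitin-conjugating enzyme that removes Pi transporters. PHO2 measured 81.9, 78.2 and 86 RPKM in *otu5* against 100, 97.9 and 97.1 RPKM in WT (-0.26 ± 0.056, adjusted p = 0.017), and the difference in control medium was 0.041, not called. Both calls were lost without *otu5* replicate 1 (adjusted p of 0.091 for WRKY6 and 0.061 for PHO2), WT replicate 1 (0.1 and 0.066) or WT replicate 2 (0.089 and 0.053), and that of WRKY6 also without *otu5* replicate 2 (0.064). SPX1, the Pi sensor induced by starvation, measured 96.5, 148 and 131 RPKM in *otu5* and 207, 137 and 88.9 RPKM in WT (-0.15 ± 0.29, adjusted p = 0.79). IPS1, a non-coding mimic of the PHO2-targeting microRNA, measured 62.5, 126 and 110 RPKM in *otu5* and 164, 99.3 and 52.7 RPKM in WT (0.0066 ± 0.39, adjusted p = 0.99). Both overlapped between genotypes, with WT replicate 1 the highest and WT replicate 3 the lowest of the 6 libraries. Without WT replicate 3 the number of list members called lower was 6, and without *otu5* replicate 2 it was 3.

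Downstream Pi genes gave no calls with the values as deposited. In limma 0 of 10 Pi scavenging genes (1 higher and 2 lower at an unadjusted p under 0.05), 0 of 18 lipid remodelling genes (1 higher) and 0 of 8 genes of local Pi sensing (2 higher and 1 lower) passed, with medians of -0.021, 0.043 and -0.057. The secreted acid phosphatase PAP17 measured 67.6, 103 and 73.9 RPKM in *otu5* and 111, 81.4 and 61 RPKM in WT, and the sulfolipid synthase SQD2 measured 35.1, 52.5 and 41.6 RPKM in *otu5* and 89.2, 51.4 and 38.5 RPKM in WT. Neither separated the genotypes. In the local pathway, ALMT1, the malate channel of the root tip, differed by -0.61 ± 0.17 (adjusted p = 0.05, just above the threshold before rounding) and was called lower after centring by gene length and level (-0.62, adjusted p = 0.049), and the ferroxidases LPR1 and LPR2 by -0.26 and 0.31, neither called.

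Iron genes moved in a limited way. Of 26 tested iron uptake and distribution genes 5 rose (19.2%, against 4% of all tested genes) with a median of 0.053, and of 7 tested iron storage genes 3 fell (42.9%, against 5.91%) with a median of -0.29. VTL5, of the vacuolar iron transporter-like family, measured 35.7, 40.9 and 28.2 RPKM in *otu5* against 158, 148 and 112 RPKM in WT (-1.98 ± 0.18, adjusted p = 0.00057). AHA2, the main proton pump that acidifies the root surface, measured 733, 636 and 709 RPKM in *otu5* against 528, 477 and 521 RPKM in WT (0.44 ± 0.074, adjusted p = 0.0058). Both genes separated the genotypes without overlap and in control medium differed by -1.78 and 0.29. The others that changed were AT1G47400 at 1.01, AT1G47395 at 1, the phloem iron transporter OPT3 at 0.52 and the auxin-precursor and coumarin exporter PDR9 at 0.33 among the rises, and VTL2 at -0.98 and the ferritin FER3 at -0.28 among the falls. All 6 of these calls were lost without *otu5* replicate 1, where 1 iron uptake gene and 1 storage gene stayed called. Fewer were also called without *otu5* replicate 3 (2 and 2), WT replicate 1 (3 and 1) and WT replicate 2 (2 and 1). After centring by gene length and level 3 uptake genes were called, with OPT3 (0.055) and PDR9 (0.054) lost, and 3 storage genes. IRT1, the main root iron importer, was at or below 0.35 RPKM in *otu5* and 0.592 RPKM in WT, and FRO2, the matching ferric reductase, measured 1.74, 1.6 and 2.18 RPKM in *otu5* and 1.9, 1.31 and 1.48 RPKM in WT, with no call for either.

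Some nitrate genes rose, and few sulfate genes were called. Of 15 tested nitrate genes 4 rose (26.7%, against 4% of all tested genes), with a median of 0.22. At an unadjusted p under 0.05 in limma 7 were higher and 3 lower. The lower ones included NRT2.4 at -1.04 (adjusted p = 0.056), not called. NRT2.1, the main high-affinity nitrate transporter, measured 676, 717 and 790 RPKM in *otu5* against 414, 512 and 310 RPKM in WT (0.85 ± 0.23, adjusted p = 0.046). NIA2, the main nitrate reductase, measured 590, 639 and 558 RPKM in *otu5* against 324, 392 and 445 RPKM in WT (0.63 ± 0.11, adjusted p = 0.0058). NRT2.2 rose by 1.53, but with a WT control mean of 0.197 RPKM it passed the 1 RPKM filter through *otu5* libraries alone. The nitrite reductase NIR1 rose by 0.38. Groups were apart in these genes, but the NRT2.1 call was lost in 5 of the 6 fits that left out 1 library (adjusted p up to 0.12, all but the fit without WT replicate 2) and that of NIR1 was likewise lost (0.12 without *otu5* replicate 1, also without *otu5* replicate 2 and each WT replicate), so that 2 nitrate genes stayed called without *otu5* replicate 1, WT replicate 1 or WT replicate 3. The 2 high-affinity sulfate importers went opposite ways. SULTR1;1 measured 1.11, 1.37 and 1.93 RPKM in *otu5* against 5.13, 5.37 and 3.66 RPKM in WT (-1.41 ± 0.17, adjusted p = 0.0014). SULTR1;2 measured 131, 109 and 119 RPKM in *otu5* against 78.9, 71.7 and 93.3 RPKM in WT (0.56 ± 0.11, adjusted p = 0.011). Of 16 tested sulfate genes these were the 2 called. The shares of 6.25% higher and 6.25% lower are close to the 4% and 5.91% of all tested genes.

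**Figure D4:**
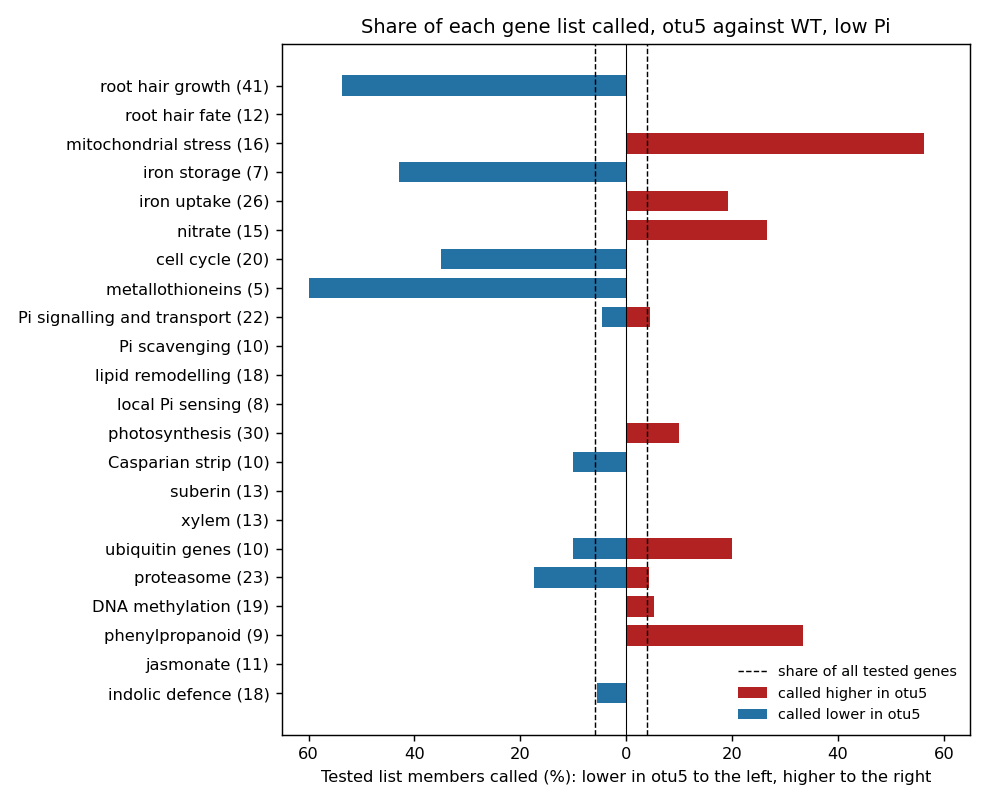
Share of the tested members of 22 gene lists called higher (right) or lower (left) in *otu5* in low Pi, with the number tested in brackets and the shares over all tested genes as dashed lines (4% and 5.91%). Root hair growth reaches 53.7% lower and mitochondrial stress 56.2% higher, and Pi scavenging, lipid remodelling and local Pi sensing stand at 0. The lists were chosen with earlier results of these data known.

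Several genes of mitosis and DNA replication, which mark dividing cells, fell. Of 20 tested cell cycle genes 7 fell (35%, against 5.91% of all tested genes), with a median of -0.18. In control medium 8 fell, against 5.52% of all tested genes, and the median was again -0.18. CDKB2;1, a mitotic cyclin-dependent kinase, measured 27, 25.6 and 30.4 RPKM in *otu5* against 40, 36.1 and 37.3 RPKM in WT (-0.45 ± 0.07, adjusted p = 0.0046). KN, the syntaxin of cell plate formation, measured 49, 48.4 and 58.6 RPKM in *otu5* against 69.4, 69.1 and 65.6 RPKM in WT (-0.39 ± 0.071, adjusted p = 0.0084). TSO2, a ribonucleotide reductase subunit, fell by 0.41, and PCNA1, PCNA2, CYCB1;2 and CYCB1;4 fell by 0.33 to 0.37, whereas the 6 MCM helicase subunits lay between -0.075 and 0.088 without a call. Without *otu5* replicate 1 or WT replicate 1 the count was 3, and without *otu5* replicate 2 it was 4. Of 9 HTA genes, coding for H2A histones and grouped by symbol after values were seen, 5 fell (55.6%, against 5.91% of all tested genes). After centring by gene length and level 2 of them were called, HTA11 and HTA12, and the count was 1 without WT replicate 1, 2 without *otu5* replicate 1 and 3 without *otu5* replicate 2 or WT replicate 2.

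Other cell type lists held few calls. The Casparian strip list had 1 fall of 10 (10%, against 5.91% of all tested genes), CASP1 at -0.48. Its call was lost without WT replicate 1 (adjusted p = 0.053) or WT replicate 2 (0.052) and after centring of length and level (0.079). Limma called 0 of 13 suberin genes (2 higher at an unadjusted p under 0.05), 0 of 13 xylem genes (0), 0 of 6 phloem genes (3 higher) and 0 of 5 stem cell niche genes (0). Of 3 root cap genes BRN1 rose (33.3%, against 4% of all tested genes). It measured 11.5, 14.4 and 10.2 RPKM in *otu5* against 8.54, 6.9 and 9.14 RPKM in WT (0.52 ± 0.14, adjusted p = 0.041). The BRN1 call was lost without *otu5* replicate 1 (0.097) or 2 (0.11) and without WT replicate 1 (0.092) or 2 (0.14). Photosynthesis genes rose in 3 of 30 cases (LHCB2.2, GAPB and RCA; 10%, against 4% of all tested genes) with a median of 0.19. In control medium 10 rose, against 4.85% of all tested genes, and after centring by gene length and level 8 were called higher in low Pi, with a median of 0.31. The count was 0 without *otu5* replicate 1 or WT replicate 1, 2 without WT replicate 3 and 7 without *otu5* replicate 3.

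The enzymes of methionine-derived (aliphatic) glucosinolates, sulfur-rich defence compounds, fell in most cases. The 21 genes were put together after the largest falls had been read, so their count describes the pathway and is no test of it. Of 19 tested genes 16 fell (84.2%, against 5.91% of all tested genes), with a median of -0.53. Libraries did not overlap in 17, against 29.1% of all tested genes, a separation that the calls nearly require. In the chain elongation steps, BCAT4, the aminotransferase that opens the pathway, measured 251, 250 and 227 RPKM in *otu5* against 442, 461 and 470 RPKM in WT (-0.92 ± 0.1, adjusted p = 0.00096). IPMI2, a small subunit of the isopropylmalate isomerase, measured 98.1, 88.6 and 93.5 RPKM in *otu5* against 190, 167 and 179 RPKM in WT (-0.93 ± 0.057, adjusted p = 3.9e-05). IMD1, the matching dehydrogenase, measured 265, 260 and 259 RPKM in *otu5* against 460, 475 and 442 RPKM in WT (-0.81 ± 0.077, adjusted p = 0.00057). In each the WT values were tight and lay well above every *otu5* value.

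Further along the same pathway, the methylthioalkylmalate synthase MAM1 fell by 0.48, and in core synthesis CYP79F2 fell by 0.55, CYP83A1 by 0.58, GSTF11 by 0.91 and the sulfotransferase SOT18 by 0.58. CYP79F2 measured 84.4, 81.7 and 81 RPKM in *otu5* against 120, 121 and 122 RPKM in WT (adjusted p = 0.0026). CYP79F1, its neighbour and near-copy, measured 4.28, 3.02 and 4 RPKM in *otu5* and 1.87, 1.17 and 2.82 RPKM in WT (0.84 ± 0.26, adjusted p = 0.069), and how reads were split between the pair is not given. MYB28, the factor that drives the pathway, measured 35.4, 30.1 and 37.9 RPKM in *otu5* against 45.7, 43.4 and 41.8 RPKM in WT (-0.34 ± 0.09, adjusted p = 0.037). Its call was lost without *otu5* replicate 1 (0.084) or 2 (0.089) and without WT replicate 1 (0.13) or 2 (0.094), and IIL1, at -0.26, lost its call without *otu5* replicate 1 (0.059), WT replicate 1 (0.053) or WT replicate 2 (0.058). In control medium 4 of the 19 fell, against 5.52% of all tested genes, with a median of -0.078. The interaction had an unadjusted p under 0.05 and a negative sign for 15 of 19, against 2.96% of all tested genes, and the smallest adjusted p was 0.25. Genes of the tryptophan-derived (indolic) defence branch had 1 of 18 called lower, GGP1 at -0.53, and a median of 0.56. That share, 5.56%, is close to the 5.91% of all tested genes. Without *otu5* replicate 3, 8 of these 18 were called higher, and GGP1 lost its call without any library but *otu5* replicate 2.

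**Figure D5:**
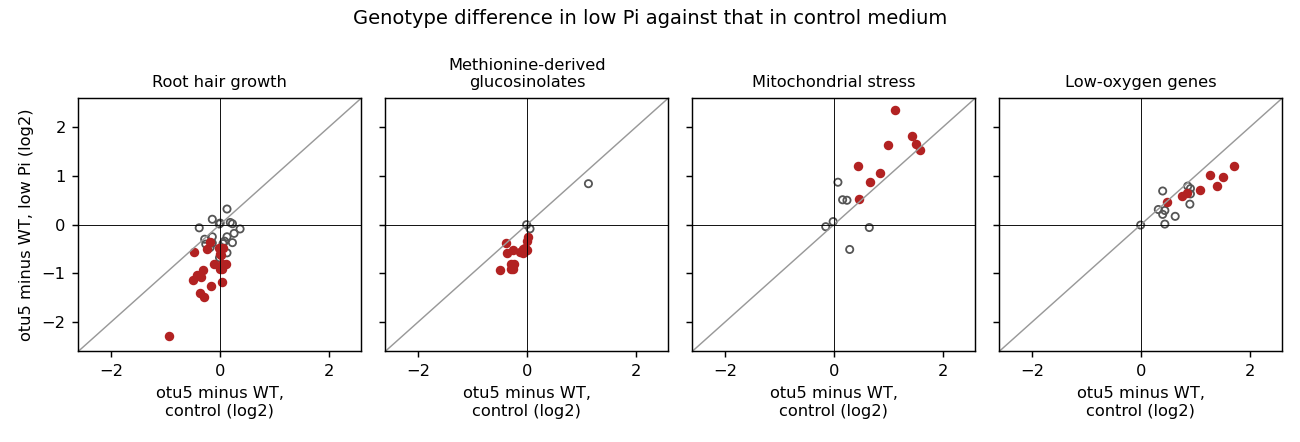
Log2 difference, *otu5* minus WT, of each tested gene of 4 groups in low Pi (vertical) and in control medium (horizontal), with genes called in low Pi filled and the grey diagonal marking equal differences. Most root hair growth and methionine-derived glucosinolate genes lie below the diagonal, near 0 on the control axis (medians of -0.012 and -0.078), and most mitochondrial stress and low-oxygen genes have positive differences in both media.

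A further 2 sets of risers were assembled after values were seen and are descriptions only. Of 19 tested genes known for their response to low oxygen 8 rose (42.1%, against 4% of all tested genes), with a median of 0.63. In control medium 14 rose, against 4.85% of all tested genes, and the median was 0.85. PDC1, pyruvate decarboxylase of ethanolic fermentation, measured 421, 518 and 569 RPKM in *otu5* against 134, 256 and 300 RPKM in WT (1.2 ± 0.27, adjusted p = 0.022), a call lost without *otu5* replicate 3 (0.058). ADH1, alcohol dehydrogenase, measured 961, 1170 and 1130 RPKM in *otu5* and 588, 971 and 928 RPKM in WT, overlapped and was not called (adjusted p = 0.18). AlaAT1, alanine aminotransferase, rose by 0.64 (adjusted p = 0.0053), the sucrose synthases SUS1 and SUS4 by 0.72 and 0.8, and the transcription factor ERF71 by 1.02. WT replicate 1 was the lowest library for PDC1 and ADH1. SUS1 lost its call without *otu5* replicate 1 (0.053) or 3 (0.058), SUS4 without WT replicate 1 (0.057), and ERF71 without *otu5* replicate 1 (0.069), WT replicate 1 (0.061) or WT replicate 2 (0.063). The count was 4 without *otu5* replicate 1 or WT replicate 1, 5 without *otu5* replicate 3 or WT replicate 2, and 12 without WT replicate 3.

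Of 14 tested genes known for induction by sugar starvation 6 rose (42.9%, against 4% of all tested genes), with a median of 0.53. In control medium 2 rose, against 4.85% of all tested genes, and the median was 0.3. ASN1 measured 306, 376 and 292 RPKM in *otu5* against 86.5, 120 and 92.7 RPKM in WT (1.7 ± 0.17, adjusted p = 0.00066). PPDK, pyruvate orthophosphate dikinase, measured 7.56, 10.3 and 4.49 RPKM in *otu5* against 2.27, 2.2 and 3.25 RPKM in WT (1.32 ± 0.23, adjusted p = 0.0078). DIN10, a raffinose synthase family member, measured 118, 130 and 166 RPKM in *otu5* against 55.9, 81.7 and 77.1 RPKM in WT (0.95 ± 0.17, adjusted p = 0.0088). All *otu5* libraries of these genes exceeded all WT libraries. DIN2, SEN1 and BCAT-2 rose by 1.46, 1.34 and 0.84. DIN2 and SEN1 lost their calls without WT replicate 1 (0.06 and 0.053), DIN2 also without *otu5* replicate 1 (0.055), and BCAT-2 without *otu5* replicate 1 (0.11) or 2 (0.094) and WT replicate 1 (0.12) or 2 (0.078). Of the whole set, 3 stayed called without WT replicate 1 and 4 without *otu5* replicate 1.

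Several other sets also held falls, and their calls depended in part on the centring by gene length and level. Of 14 tested genes of mitochondrial complex II (succinate dehydrogenase) and its assembly, also collected after values were seen, 9 fell (64.3%, against 5.91% of all tested genes and 17.9% of those above 100 RPKM), and 6 were called after centring. SDHAF2, an assembly factor, measured 103, 103 and 96 RPKM in *otu5* against 153, 147 and 134 RPKM in WT (-0.52 ± 0.06, adjusted p = 0.0012), and SDH6 measured 124, 131 and 125 RPKM in *otu5* against 160, 148 and 159 RPKM in WT (-0.3 ± 0.045, adjusted p = 0.004). After centring by length and level SDHAF2 was at -0.35 (adjusted p = 0.01) and SDH6 at -0.13 (0.071). Of 9 tested calmodulin genes (CAM) 6 fell (66.7%, against 5.91%), CAM7 by 0.41 and the others by 0.27 to 0.32, and after that centring CAM5 and CAM7 were called and CAM1, CAM3, CAM4 and CAM6 were at -0.11 to -0.15 without a call. Of 5 tested metallothioneins, small metal-binding proteins, 3 fell (60%, against 5.91%), each by 0.38. Among them MT1A, a very abundant transcript, measured 86000, 90900 and 87300 RPKM in *otu5* against 128000, 113000 and 104000 RPKM in WT, and after centring none of the 3 was called (adjusted p of 0.068 to 0.079), whereas MT2A was called higher (0.63, adjusted p = 0.049). MT1A and MT1C lost their calls without *otu5* replicate 1 (0.07 and 0.067) or WT replicate 1 (0.063 and 0.069), and MT1C also without WT replicate 2 (0.055). Of 23 tested proteasome genes 4 fell and 1 rose, where 5.91% and 4% of all tested genes did, which became 1 and 2 after centring, with log2 differences of the called genes between -0.23 and 0.24. Without *otu5* replicate 1 or WT replicate 2 limma called 0 proteasome genes, and without *otu5* replicate 3 or WT replicate 1 it called 0 lower, where all libraries gave 3 higher and 5 lower at an unadjusted p under 0.05. The complex II count was 5 without *otu5* replicate 1, WT replicate 1 or WT replicate 2. Of 6 tested dehydrins, hydrophilic proteins of drought and cold, 5 fell (83.3%, against 5.91%), led by COR47 at -1.11 ± 0.17 (adjusted p = 0.0049), and 2 stayed called without *otu5* replicate 1 or 3, without WT replicate 1 or 2, and after centring.

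Ubiquitin is made from polyubiquitin and ribosomal fusion genes, whose products deubiquitinases process. Of 10 tested ubiquitin genes UBQ10 and UBQ4 rose (20%, against 4% of all tested genes) and UBQ1 fell (10%, against 5.91%). After centring by gene length and level 4 were called higher, with UBQ3 (0.29, adjusted p = 0.025) and UBQ14 (0.31, adjusted p = 0.008) added, and none lower. UBQ10, a polyubiquitin gene, measured 1840, 1770 and 1610 RPKM in *otu5* against 1350, 1330 and 1330 RPKM in WT (0.37 ± 0.056, adjusted p = 0.0036), and in control medium differed by 0.059. UBQ4 measured 91, 88.7 and 87.2 RPKM in *otu5* against 73.4, 73.6 and 76.9 RPKM in WT (0.25 ± 0.046, adjusted p = 0.0085). UBQ1, a ubiquitin fused to a ribosomal protein, fell by 0.26, and its call was lost in each of the 6 fits without 1 library (adjusted p up to 0.1) and after centring (0.35). Of the other 10 tested OTU-family genes AT5G03330 rose, where 4% of all tested genes did. It measured 58.1, 53.3 and 49.2 RPKM in *otu5* against 30.1, 36.6 and 37.2 RPKM in WT (0.62 ± 0.14, adjusted p = 0.023). That call was lost without *otu5* replicate 1 (0.086) or 2 (0.05) and without WT replicate 1 (0.089) or 2 (0.054).

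Hormone and secondary-metabolism lists held small numbers of calls. Of 10 tested strigolactone and karrikin genes 2 rose (20%, against 4% of all tested genes) and 1 fell (10%, against 5.91%). Of 21 tested auxin genes 1 rose (4.76%) and 2 fell (9.52%), and of 14 tested ethylene genes 2 rose (14.3%) and 0 fell. CCD7 and CCD8, the carotenoid cleavage dioxygenases of strigolactone synthesis, rose by 1.32 and 1.06. CCD7 was at 0.0965, 0.301 and 0.357 RPKM in WT in low Pi and passed the 1 RPKM filter through *otu5* libraries alone. CCD8 measured 6.55, 8.31 and 10.5 RPKM in *otu5* against 3.29, 4 and 3.92 RPKM in WT (adjusted p = 0.0058), and the difference in control medium was 0.94. The karrikin receptor KAI2 fell by 0.47, a call lost after centring (adjusted p = 0.063). IAA19, an auxin-induced repressor, fell to 5.18, 5.79 and 4.31 RPKM in *otu5* against 9.63, 8.88 and 8.58 RPKM in WT (-0.78 ± 0.13, adjusted p = 0.0056), the auxin-conjugating GH3.6 rose by 0.44, and TAA1, of auxin synthesis, fell by 0.39. In the ethylene list ACS2 and ACO1, synthase and oxidase of the hormone's last steps, rose by 1.08 and 0.7. The calls of KAI2, TAA1, ACS2 and ACO1 were lost without WT replicate 1 (adjusted p of 0.13, 0.1, 0.13 and 0.058) or WT replicate 2 (0.11, 0.053, 0.1 and 0.054), and those of TAA1, ACS2 and ACO1 also without *otu5* replicate 1 (0.089, 0.075 and 0.056). Without *otu5* replicate 2 KAI2 (0.054), TAA1 (0.057) and ACS2 (0.075) lost theirs, and without *otu5* replicate 3 KAI2 (0.081), TAA1 (0.061) and ACO1 (0.053). In limma 0 of 11 jasmonate genes (0 at an unadjusted p under 0.05) and 0 of 4 tested immunity genes (0) were called.

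TPPH, a trehalose-phosphate phosphatase, had a very small p among named genes, with 2.57, 2.65 and 2.36 RPKM in *otu5* against 8.93, 7.84 and 8.82 RPKM in WT (-1.57 ± 0.1, adjusted p = 4.7e-05) and a control difference of -0.71. PAL4, a phenylalanine ammonia-lyase, was the 1 gene whose genotype difference changed between media after adjustment. It measured 21.1, 19.7 and 21.8 RPKM in *otu5* against 16.7, 17 and 16.3 RPKM in WT in low Pi (0.31 ± 0.065, adjusted p = 0.014), but differed by -0.57 in control medium. The interaction was 0.88 (adjusted p = 0.025), and the call was lost without *otu5* replicate 1 (0.15), WT replicate 1 (0.063) or WT replicate 2 (0.11), with a replicate block over the 12 libraries (0.078) and with no filter on low values (0.058). HCT, of the same pathway, differed by 0.16 in low Pi and -0.16 in control medium (interaction unadjusted p = 0.00031). Without *otu5* replicate 1 the low Pi call of PAL4 was lost (adjusted p = 0.057), and the HCT call was lost in every fit that left out 1 library. DML3, a DNA demethylase, was the 1 called gene of 19 tested DNA methylation genes (5.26%, close to the 4% of all tested genes). It measured 2.17, 1.92 and 2.27 RPKM in *otu5* against 1.29, 1.19 and 1.18 RPKM in WT (0.6 ± 0.11, adjusted p = 0.009). Of 11 tested polycomb and trithorax genes SWN, a histone methyltransferase, rose by 0.2 (9.09%, against 4% of all tested genes). Of 10 flavonoid genes CHI, chalcone isomerase, fell by 0.83 (10%, against 5.91%). Of 9 phenylpropanoid genes C4H rose by 0.31 beside PAL4 and HCT (33.3%, against 4%). Of 8 genes used as expression standards ACT2, an actin, fell by 0.3 (12.5%, against 5.91%). The calls of SWN, CHI, C4H and ACT2 were lost without *otu5* replicate 1 (adjusted p of 0.1, 0.061, 0.062 and 0.11) or WT replicate 1 (0.11, 0.09, 0.08 and 0.11). SWN, CHI and ACT2 were also lost without WT replicate 2 (0.092, 0.083 and 0.08), SWN and C4H without *otu5* replicate 2 (0.075 and 0.057), and CHI and ACT2 without *otu5* replicate 3 (0.059 and 0.078). After centring SWN (0.1) and ACT2 (0.061) were not called. In limma 0 of 10 heat shock genes (1 higher and 1 lower at an unadjusted p under 0.05) and 0 of 6 genes of the unfolded protein response (2 higher) were called, and none of 3 listed silenced reporter genes was tested.

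Across all genes the 2 media gave related lists. In control medium 990 genes rose in *otu5* (4.85%) and 1127 fell (5.52%). Of the rises, 433 were called in both media, which is 53% of those in low Pi and 43.7% of those in control medium, and of the falls 582, which is 48.3% and 51.6%. Of the 2023 genes called in low Pi, 95.9% had the same sign of difference in control medium. The share with the same sign over all tested genes was not computed. The genotype comparisons in the 2 media share no library but were fitted together, with a common residual spread per gene. Their calls are therefore not independent, and genes with a small spread are favoured in both. Chromosomes 1 to 5 held similar shares of called genes, whereas 0 of 22 tested chloroplast and 0 of 25 tested mitochondrial genome genes were called in limma.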

How the data were processed

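Roots were profiled by polyA RNA-seq in 12 libraries (4 groups of 3). The authors deposited RPKM values per gene, with no counts, so sequencing depth is unknown and no counting interval is given. Per the submitters' processing notes the tools were TopHat2 2.0.4 and Cuffdiff and the build TAIR10, without the role of each. RPKM is relative to gene length and library size, but how the libraries were scaled against each other is not stated. WT control replicate 3, where AT2G01021 took 23.9%, had the highest sum, 1330830 RPKM. Whether abundant transcripts in 1 library lowered the values of other genes was not tested.

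Values were taken as log2(RPKM + 0.5), a scale that understates changes of low genes. Genes reaching 1 RPKM in 3 or more of the 12 libraries were tested in limma 3.58.1 (R 4.3.3) with 4 group means, 8 residual degrees of freedom, and trended, robust variance. Two-sided p-values were adjusted by Benjamini-Hochberg over 20411 genes. The fit was run on simulated data with independent normal values and known shifts. Those data held no library effects and no link of calls to level or gene length, so the run does not vouch for the calls here. Symbols came from RefSeq TAIR10.1, where 32810 of 33557 IDs matched (97.8%).

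The comparison's genes, 37 gene lists (538 genes, 491 tested) and 5 further sets were chosen with earlier results of these data known. Named genes were OTU5 with 3 neighbours a side, the 10 largest rises and falls with a symbol and no overlap, up to 4 called members a list, the 6 largest changes at 100 RPKM or more, and the 6 smallest interaction p-values. Other members were named after their values were seen. Alternatives were 11 settings and 6 left-out libraries, plus a centring by gene length and level. DNA methylation samples were not used here. Within WT, low Pi and control libraries of the same number deviated together only weakly (correlations of 0.2, 0.26 and 0.11). The labels state no pairing, so whether the replicate number pairs them is not known. The low Pi against control comparison in WT was also fitted with a replicate block, an alternative added after seeing the data. It called 1047 genes higher in the 6 WT libraries, against 519 without the block. With the block over the 12 libraries the count went the other way, to 445 against 520.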

Additional observations from a re-analysis of the deposited data

Results flagged for a closer look

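PAL4, a phenylalanine ammonia-lyase, differed between media in its genotype effect. The log2 difference, *otu5* minus WT, was 0.31 in low Pi and -0.57 in control medium, and the interaction of 0.88 passed in limma (adjusted p = 0.025). It was the 1 gene of 20411 to do so. The PAL4 call was lost with a replicate block over the 12 libraries (0.078), with no filter on low values (0.058) and without *otu5* replicate 1 (0.15), WT replicate 1 (0.063) or WT replicate 2 (0.11).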

How the results depend on the processing

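With all libraries 817 genes were called higher, 1206 lower and 1 for the interaction. Leaving out 1 library gave 282 to 883 higher, 531 to 1368 lower and 0 to 17 for the interaction. Without a filter on low values the counts were 216, 386 and 5, and in the 6 low Pi libraries alone 184 and 318. Estimated library weights gave 1962, 2420 and 147, and limma without trend and robust estimation gave 2 for the interaction. Libraries of the same replicate number deviated together weakly or not at all between *otu5* and WT in low Pi (correlations of -0.03, 0.2 and -0.069). Between low Pi and control within *otu5* the correlations were -0.11, -0.092 and -0.004. Of the 3 numbers 1 was matched best by its own. The labels state no pairing, so whether the numbers pair libraries is not known. A replicate block over the 12 libraries gave 691, 1107 and 0, and a block in the low Pi libraries only gave 13 higher and 43 lower. Under the 12-library block 24 root hair growth genes, against 25 without it, had a negative interaction at an unadjusted p under 0.05. The cause of these shifts was not tested. Centring by gene length and level, chosen after seeing the data, gave 742, 898 and 1. No value reversed. Of 155 named gene values, 58 lost their call with no filter, 70 in the 6 libraries alone, 110 with the block in low Pi only, 20 with centring and none under either other pseudocount or median ratio scaling.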
